A study of Rattus norvegicus with 15 samples.

Results

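The SR splicing factors examined here are 10 rat genes, Srsf1, Srsf2, Srsf3, Srsf4, Srsf5, Srsf6, Srsf7, Srsf9, Srsf10 and Srsf11. They were chosen by name, with earlier results of these data in view, so their summed levels are given as a description and no p-value is printed for them, and calls are only counted. Their members in the table were the rows that carry one of these names, together with unnamed rows whose locus identifier holds only that name. They came to 71 transcripts, 12 annotated and 59 assembled from the reads, of 85322 transcripts in all, and to 10 genes of 37367. The FPKM values (read coverage of a transcript scaled to its length and to the depth of its library) of a gene's transcripts were summed in each library. A shift between transcripts of different length can therefore move a gene's sum without a change in its reads.

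The libraries came from primary cultures labelled as brain microvascular endothelial cells (BMECs), prepared from 6 Sprague Dawley rats that were littermates aged 2 to 3 weeks, of both sexes. Unexposed control cells were compared with cells given 5 Gy or 20 Gy of x-rays and harvested after 12 h or 24 h, with 3 libraries in each of the 5 groups and no genetic change in any. The labels of the controls give a culture time of 12 h and no unexposed culture of 24 h was analysed here, so that at 24 h the time after exposure and the time in culture cannot be told apart. The controls were handled as the exposed cells but for the x-rays. The 3 libraries of a group are described as biological replicates without naming separate animals, so errors measure the spread between libraries.

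The libraries rested on similar depths, with a smallest total of aligned bases that fits the deposited values of 2.72 to 3.75 gigabases. Replicates of a group correlated with r between 0.963 and 0.975 over genes. The labelled cell type was not borne out by its markers. Of 14 endothelial markers 12 were in the table, and 2 of them, Slc2a1 and Flt1, had a mean of at least 1 FPKM. The mean was 0.0763 FPKM for Cdh5 and 0.00429 FPKM for Cldn5, and Tie1 and Emcn were listed at 0. The 8 fibroblast markers summed to between 1798 and 1987 FPKM in the control libraries and to between 272 and 326 FPKM at 24 h after either dose, and their part in the results at 24 h was not tested. Most of that sum was collagen, with control means of 516 (Col1a1), 414 (Col1a2) and 535 FPKM (Col3a1) and 31.4, 30.7 and 36.6 FPKM at 24 h after 20 Gy. Dcn stood at 195.5 and 82.8 FPKM and Lum at 207 and 62.7 FPKM there. Pdgfra was not lower, at 52.1 FPKM in controls and 60.8 and 51.6 FPKM at 24 h after 5 and 20 Gy. The other marker sums, in the controls and over the 6 libraries of 24 h, were 23.7 to 31.0 and 20.8 to 27.6 FPKM for the endothelial list, 152.4 to 159.9 and 49.9 to 87.7 FPKM for 7 pericyte markers, 517 to 764 and 323 to 436 FPKM for 6 astrocyte markers, 61.0 to 74.8 and 22.4 to 40.2 FPKM for 6 neuron markers, 21.2 to 25.2 and 8.57 to 13.3 FPKM for 7 microglia markers, and 1.22 FPKM or less in every library for 7 oligodendrocyte markers. The astrocyte sum was mostly Gja1 (623 FPKM in controls and 333 FPKM at 24 h after 20 Gy), while Aldh1l1 stood at 9.52 and 23.7 FPKM, Gfap near 0 and Aqp4 at 0. The neuron sum was mostly Stmn2 (58.7 and 20.4 FPKM), with Syt1 at 6.68 and 9.18 FPKM and Rbfox3 at 0, and the microglia sum was nearly all Tmem119 (23.1 and 11.3 FPKM). The part of these lists was not tested either. The cells are therefore called cultured cells below. In bulk RNA, fewer cells of a type and less RNA per cell cannot be told apart.

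SR proteins bind RNA through RNA recognition motifs at their amino end and contact other splicing proteins through a tail rich in arginine and serine. Bound to exonic enhancers, they help the U1 particle and the U2AF factor to recognise the ends of an exon, and several of them also take part in the export and translation of mRNA. The tail is phosphorylated by SRPK kinases in the cytoplasm and CLK kinases in the nucleus. Many SR genes restrain their own levels through alternative exons that bring in an early stop codon and send the transcript to nonsense-mediated decay, so the sum over transcripts and the share of each transcript carry different information.

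The bases before the transcription start are shown for the 3 members with the largest differences below control at 24 h, Srsf5, Srsf6 and Srsf2, and for Srsf4, the member above control at 24 h by more than 1.5-fold. All 10 members matched a RefSeq promoter window of build GRCr8, with 2 windows for Srsf10. GRCr8 differs from Rnor_6.0, the build of the expression table. Each sequence is the 250 bases before the start on the transcribed strand, at chr6:106336506-106336755 (plus strand) for Srsf5, chr3:172008822-172009071 (plus strand) for Srsf6, chr10:102554142-102554391 (minus strand) for Srsf2 and chr5:149345288-149345537 (plus strand) for Srsf4. Capitals mark 5 short motifs searched on both strands, namely the cyclic AMP response element core TGACGT, the CCAAT box CCAAT, the YY1 core CCATTTT, the TATA box TATAAA and the GC box GGGCGG.
Srsf5: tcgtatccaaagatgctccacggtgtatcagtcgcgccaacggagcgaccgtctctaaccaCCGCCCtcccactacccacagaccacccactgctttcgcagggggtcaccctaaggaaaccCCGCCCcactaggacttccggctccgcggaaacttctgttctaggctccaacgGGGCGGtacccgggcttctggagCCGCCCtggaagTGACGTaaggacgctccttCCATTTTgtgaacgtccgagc
Srsf6: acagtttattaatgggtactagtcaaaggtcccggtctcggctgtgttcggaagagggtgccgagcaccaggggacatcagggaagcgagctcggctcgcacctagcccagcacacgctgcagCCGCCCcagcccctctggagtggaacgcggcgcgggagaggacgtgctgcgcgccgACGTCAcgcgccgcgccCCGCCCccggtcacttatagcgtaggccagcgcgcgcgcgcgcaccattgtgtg
Srsf2: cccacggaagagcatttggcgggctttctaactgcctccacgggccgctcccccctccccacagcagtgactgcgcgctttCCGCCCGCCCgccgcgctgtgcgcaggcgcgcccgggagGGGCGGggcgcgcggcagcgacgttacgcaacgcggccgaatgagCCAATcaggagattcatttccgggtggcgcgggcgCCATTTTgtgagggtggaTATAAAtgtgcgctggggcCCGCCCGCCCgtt
Srsf4: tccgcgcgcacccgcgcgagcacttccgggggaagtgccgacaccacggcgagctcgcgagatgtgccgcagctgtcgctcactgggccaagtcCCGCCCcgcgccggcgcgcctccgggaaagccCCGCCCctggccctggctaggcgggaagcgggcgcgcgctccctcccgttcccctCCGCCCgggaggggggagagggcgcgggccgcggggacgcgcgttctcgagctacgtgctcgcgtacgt

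The 4 windows were rich in G and C, from 61.2% in Srsf5 to 77.2% in Srsf4. TGACGT was found in 5 of the 10 genes, Srsf1, Srsf3, Srsf5, Srsf6 and Srsf11, and in 6.95% of 33465 windows of the same length. In Srsf5 it began 40 bases before the start, and CCATTTT began 21 bases before it. The Srsf2 window held TATAAA, beginning 32 bases before the start, CCATTTT 50 bases before it and CCAAT 85 bases before it. The Srsf4 window held only the GC box, on the opposite strand, at 3 places. CCATTTT lay in 2 of the 10 genes against 4.62% of all windows, TATAAA in 2 against 12.9%, CCAAT in 4 against 34% and GGGCGG in 8 against 30.5%. In Srsf2 the GC boxes at 169 and 165 bases before the start overlap, as do those at 13 and 9. The motifs were chosen after the windows were seen, and a match of letters is a description.

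In the control libraries Srsf5 was the most abundant SR mRNA by FPKM, which is a level per length. Its mean was 346.5 ± 21.6 FPKM (SD, n = 3), above Srsf2 at 122.2 ± 7.68 FPKM and Srsf3 at 59.2 ± 5.62 FPKM, and the libraries of these 3 genes did not overlap. Srsf9 (47.9 ± 1.51 FPKM) and Srsf6 (46.7 ± 1.15 FPKM) overlapped each other. Among the next genes, Srsf1 (41.2 ± 4.21 FPKM) overlapped Srsf11 (37.9 ± 2.097 FPKM), and Srsf11 overlapped Srsf7 (34.3 ± 4.83 FPKM). Srsf4 (26.1 ± 1.403 FPKM) and Srsf10 (15.8 ± 1.63 FPKM) were the lowest, without overlap. Together the 10 genes summed to 777.8 ± 33.5 FPKM in controls. The sum was 625 ± 4.22 and 603 ± 23.9 FPKM at 12 h after 5 and 20 Gy, and 321 ± 3.91 and 299.5 ± 21.0 FPKM at 24 h. The mean sum at 24 h was thus less than the mean of Srsf5 alone in the controls. At 24 h after 5 Gy the order by mean was Srsf3, Srsf4, Srsf2, Srsf9 and Srsf11, each overlapping the next, then Srsf7, Srsf1, Srsf5, Srsf10 and Srsf6. After 20 Gy it was Srsf11, Srsf3, Srsf4, Srsf9, Srsf7 and Srsf2, each overlapping the next, then Srsf5, Srsf1, Srsf10 and Srsf6, and Srsf5 overlapped Srsf1 after either dose.

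**Figure D1:**
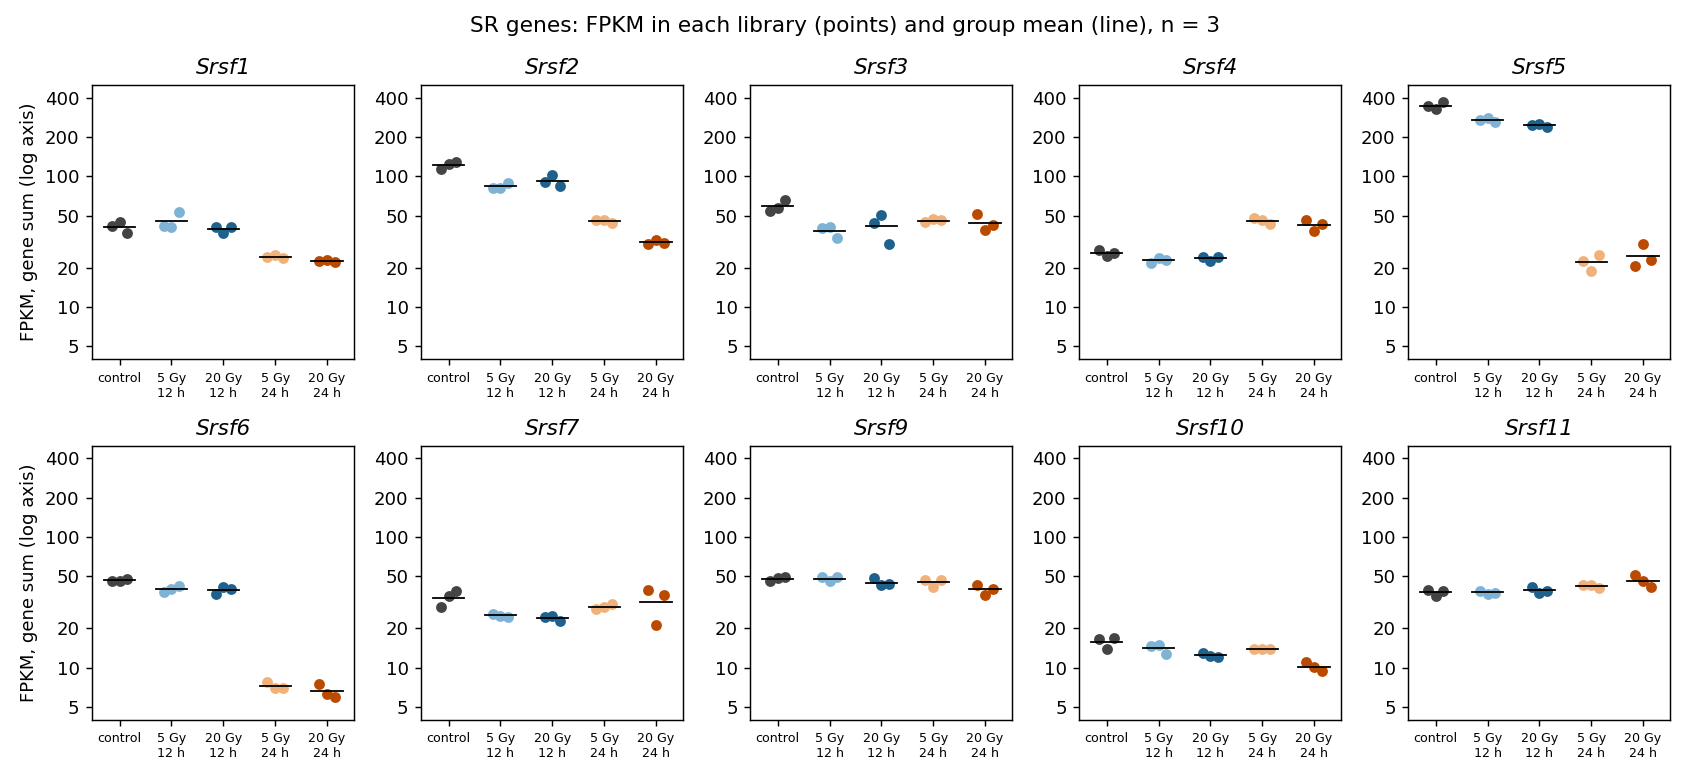
Summed FPKM of each SR gene (vertical log axis) in each of the 15 libraries (points) and the mean of each group (line), n = 3 libraries a group. Srsf5 lies between 325 and 368 FPKM in controls and between 18.8 and 30.3 FPKM in the 6 libraries of 24 h, while Srsf4 lies above all of its control libraries at 24 h.

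Srsf5 encodes an SR protein first described as an insulin-induced gene product of regenerating liver. The gene lies on chromosome 6 of Rnor_6.0 from 104611020 to 104615302 on the plus strand. It measured 347, 325 and 368 FPKM in the control libraries. At 12 h it measured 271, 281 and 258 FPKM after 5 Gy and 247, 252 and 239 FPKM after 20 Gy. At 24 h it measured 22.5, 18.8 and 25.1 FPKM after 5 Gy and 20.6, 30.3 and 23.1 FPKM after 20 Gy. By summed FPKM, all libraries of each exposed group lay below all controls. In aligned bases, counted as read lengths of 150 bases and not scaled to depth, Srsf5 held 7668 to 9069 in controls. By this count the libraries of 12 h after 5 Gy, at 7555 to 8209, overlapped the controls. Those of 12 h after 20 Gy held 7119 to 7260, and those of 24 h held 597 to 938. The means at 24 h were 6.40% of the control mean after 5 Gy and 7.12% after 20 Gy, which are log2 differences of -3.91 and -3.77 (SE 0.125), against -0.36 and -0.49 at 12 h. The 2 doses overlapped at 24 h.

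Srsf6, whose product was named for its apparent mass and acts on exon choice in epithelial and neuronal transcripts, showed the next largest difference. It is on chromosome 3 from 159305345 to 159310668. Control libraries held 45.9, 46.2 and 48.01 FPKM. The libraries of 12 h held 38.2, 39.9 and 42.2 FPKM after 5 Gy and 36.9, 41.4 and 40.2 FPKM after 20 Gy. Those of 24 h held 7.78, 6.95 and 7.004 FPKM after 5 Gy and 7.53, 6.32 and 5.99 FPKM after 20 Gy. Every exposed group was below the controls without overlap, by a log2 difference of -0.22 and -0.24 at 12 h and of -2.53 and -2.65 at 24 h (SE 0.0838), the last leaving 15.5% and 14.2% of the control mean.

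Srsf2 (SC35), which marks nuclear speckles and is also needed for transcription elongation, differed at both times. It is on chromosome 10 from 105792779 to 105796629 on the minus strand. It measured 114, 124 and 129 FPKM in controls, 80.96, 81.3 and 88.97 FPKM at 12 h after 5 Gy and 89.9, 102 and 83.6 FPKM at 12 h after 20 Gy. At 24 h it measured 46.2, 46.7 and 43.6 FPKM after 5 Gy and 30.5, 32.4 and 30.9 FPKM after 20 Gy. The 5 groups were stepped, with the doses overlapping at 12 h and separated at 24 h. The log2 difference from control was -0.54 and -0.41 at 12 h and -1.40 and -1.93 at 24 h (SE 0.0791), and that between 20 and 5 Gy was 0.13 at 12 h and -0.53 at 24 h. With the annotated transcript alone the difference from control was -1.52 and -1.31 at 12 h and -1.60 and -1.96 at 24 h. MSTRG.4904.1 held 50.99 FPKM in replicate 3 of 5 Gy 12 h and 43.3 FPKM in replicate 2 of 20 Gy 12 h. In every other library it held 2.45 FPKM or less.

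Srsf1, the founding member of the family, which also shuttles to the cytoplasm, was by summed FPKM near its control level at 12 h and lower at 24 h. It is on chromosome 10 from 75335146 to 75354323. Controls measured 42.02, 45.04 and 36.7 FPKM, and the 12 h libraries, from 36.8 to 53.6 FPKM, overlapped them. At 24 h it measured 24.2, 25.1 and 23.7 FPKM after 5 Gy and 22.4, 22.9 and 21.997 FPKM after 20 Gy, with log2 differences of -0.73 and -0.84 (SE 0.103). With the annotated transcript alone the difference was 1.42 and 1.21, in the opposite direction. In aligned bases, counted as read lengths of 150 bases, the controls held 2874 to 3011 and the 12 h libraries 3123 to 4826. Those of 24 h held 2134 to 2646. Depths were 3.12 to 3.37 gigabases in controls and 3.23 to 3.40 at 12 h, all known up to a multiple. By this count, not scaled to depth, all libraries of 12 h lay above the controls.

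Srsf4, a relative of Srsf5 and Srsf6 with a long arginine-serine tail, went the other way at 24 h. It is on chromosome 5 from 150032999 to 150060765. It measured 27.5, 24.7 and 25.9 FPKM in controls and 21.8 to 24.1 FPKM at 12 h, just under the lowest control. At 24 h it measured 47.6, 45.96 and 43.5 FPKM after 5 Gy and 46.4, 38.2 and 42.9 FPKM after 20 Gy, all above the controls. The log2 difference was 0.79 after 5 Gy and 0.68 after 20 Gy (SE 0.0780).

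Srsf3, the smallest of the classical members, and Srsf7, its close relative with a zinc knuckle, had their lowest mean summed FPKM at 12 h. For both genes the libraries of 12 h and 24 h overlapped after 20 Gy. Srsf3 measured 54.6, 57.5 and 65.4 FPKM in controls, 39.97, 41.03 and 33.8 FPKM at 12 h after 5 Gy and 44.04, 50.8 and 30.4 FPKM after 20 Gy. At 24 h it measured 44.5, 46.7 and 46.1 FPKM after 5 Gy and 51.03, 38.95 and 42.4 FPKM after 20 Gy. All 12 exposed libraries lay below the controls, by a log2 difference of -0.62, -0.52, -0.36 and -0.42 in the 4 comparisons (SE 0.159). Counted as read lengths, not scaled to depth, Srsf3 held 3179 to 3830 in controls. It held 1659 to 2922 at 12 h and 1906 to 2644 at 24 h, so that by this count the 2 times overlapped. Srsf7 measured 29.1, 35.4 and 38.5 FPKM in controls and 22.9 to 25.8 FPKM at 12 h, without overlap, with differences of -0.43 and -0.49 (SE 0.174). At 24 h its libraries overlapped the controls, and 1 library of 20 Gy held 21.1 FPKM beside 39.0 and 35.9 FPKM in the others.

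The remaining members differed less by summed FPKM. Srsf10, which acts as a repressor when it is dephosphorylated in heat shock, had a mean of 15.8 FPKM in controls and of 14.1 and 12.4 FPKM at 12 h (5 and 20 Gy) and 13.9 and 10.2 FPKM at 24 h (5 and 20 Gy). The last difference was -0.58 on the log2 scale (SE 0.0889), just short of 1.5-fold on that scale. Counted as read lengths, not scaled to depth, Srsf10 held 1239 to 1525 in controls and 786 to 1024 at 24 h after 20 Gy. By this count all exposed libraries, from 767 to 1236, lay below the controls. Srsf11, which binds U2AF, measured 35.5 to 39.4 FPKM in controls and 41.2 to 51.1 FPKM at 24 h after 20 Gy, all above the controls, with a difference of 0.27 (SE 0.0803). Srsf9, a small member that gathers in nuclear stress bodies after heat shock, measured 46.2 to 49.2 FPKM in controls and overlapped them except at 24 h after 20 Gy, where it measured 43.2, 36.2 and 39.7 FPKM and the difference was -0.27 (SE 0.0806). Srsf9 lay at -0.08 at 24 h after 5 Gy and at 0.03 to 0.07 after quantile scaling or rescaling to an equal sum.

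**Figure D2:**
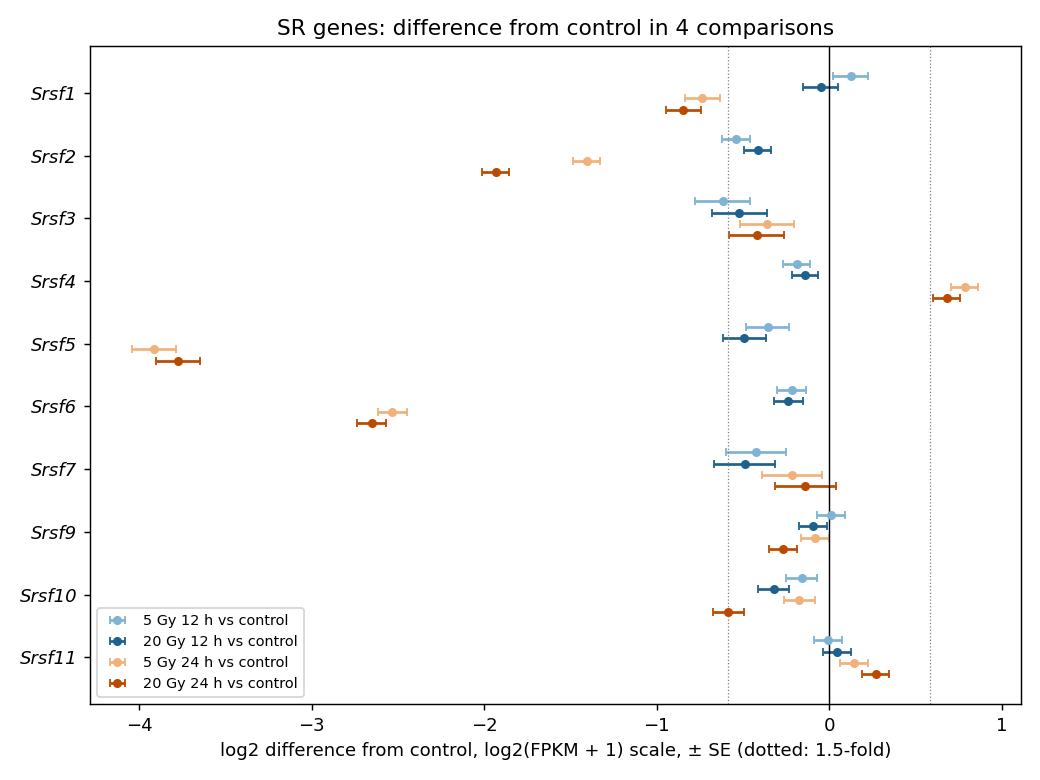
Log2 difference from control of each SR gene in the 4 comparisons (points), with the standard error of the fit (bars), on the log2(FPKM + 1) scale. The dotted lines mark 1.5-fold, and the points of 24 h lie farthest to the left for Srsf5, Srsf6 and Srsf2, from -1.40 to -3.91.

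A gene was called where limma, fitted over 17895 genes, gave a Benjamini-Hochberg adjusted p under 0.05 and a fold of at least 1.5. All 10 members had a mean of at least 0.5 FPKM and entered the fit. At 12 h after 5 Gy, 1 member (Srsf3) was called lower and 0 higher, where 4.96% of all genes were called lower and 4.98% higher. At 12 h after 20 Gy 0 members were called, with 6 at an unadjusted p under 0.05, where 3.64% of genes were called lower and 4.90% higher. At 24 h after 5 Gy 4 members were called lower (Srsf1, Srsf2, Srsf5 and Srsf6) and 1 higher (Srsf4), where 20.8% and 20.5% of genes were called. At 24 h after 20 Gy the same 5 members were called, where 23.3% of genes were called lower and 17.0% higher. Between the doses 0 members were called at 12 h, with 0 at an unadjusted p under 0.05, against 0.123% of genes, and 0 at 24 h, with 3 at an unadjusted p under 0.05, against 2.42%. Since the names were chosen with these contrasts in view, nothing is read from the counts.

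The median log2 difference over the members was -0.20, -0.28, -0.29 and -0.50 in the 4 comparisons, beside 0.03, 0.01, -0.05 and -0.14 over all genes tested. Quantile scaling moved the last median over all genes to -0.03, and rescaling each library to an equal sum moved that of 24 h after 5 Gy to 0.06. The 5 members called at 24 h kept their direction under both. The call of Srsf3 at 12 h was lost under both scalings, and without control replicate 3 or without replicate 3 of 5 Gy 12 h. It was also lost with only the transcript of highest mean (log2 -0.54), a setting in which Srsf2 was called (log2 -1.52). Without control replicate 1 Srsf2 was also called there, and without replicate 2 of 20 Gy 12 h Srsf3 was called at 20 Gy.

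Within the genes, the mix of transcripts also differed between groups. Transcript use was tested apart from the gene sums, as the log2 change of a transcript minus the mean log2 change of the other transcripts of its gene (limma diffSplice, with a false discovery rate, FDR, over 29020 transcripts). It was tested for 61 transcripts of 9 members, since Srsf9 has 1 transcript. At 12 h, 10 transcripts were called after each dose, against 3.05% of all transcripts after 5 Gy and 3.07% after 20 Gy. At 24 h, 15 were called after each dose, against 12.3% and 12.9%. They are given below as shares of the gene's summed FPKM. With a pseudocount of 0.1 in place of 1 the counts were 2 and 4 at 12 h, and 11 and 9 at 24 h. For several members the shares differed widely between replicates of a group. The fit uses the same libraries that were in view when the members were chosen, so its FDRs are no independent support for that choice.

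Srsf3 exchanged its main transcripts at 24 h. Of its 3 annotated transcripts, those with the highest means are a 7-exon transcript of 1917 bases (ENSRNOT00000092663) and a 6-exon transcript of 2884 bases (ENSRNOT00000000627). The 7-exon transcript held 14.7%, 19.7% and 28.3% of the gene in controls. It held 15.3 to 26.9% at 12 h, then 74.2%, 67.3% and 67.7% at 24 h after 5 Gy and 82.3%, 70.1% and 80.01% at 24 h after 20 Gy. The libraries of 24 h were thus all above those of the other groups. In FPKM it measured 8.01, 11.3 and 18.5 in controls and 42.0, 27.3 and 33.9 at 24 h after 20 Gy, while the 6-exon transcript measured 20.1, 20.1 and 22.9 in controls and 1.43, 4.11 and 2.21 there. The use difference of the 7-exon transcript was 2.75 after 5 Gy (FDR 0.00701) and 3.07 after 20 Gy (FDR 0.00225) on the log2 scale. That after 5 Gy was lost at a pseudocount of 0.1 (FDR 0.0704) and without control replicate 1 (FDR 0.0519), while that after 20 Gy held under the alternatives tried. Taken alone, this transcript stood above control by a log2 difference of 1.35 and 1.43 at 24 h, against -0.36 and -0.42 for the gene sum. The table gives exon numbers but no exon positions, and the protein read from either transcript was not analysed here.

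**Figure D3:**
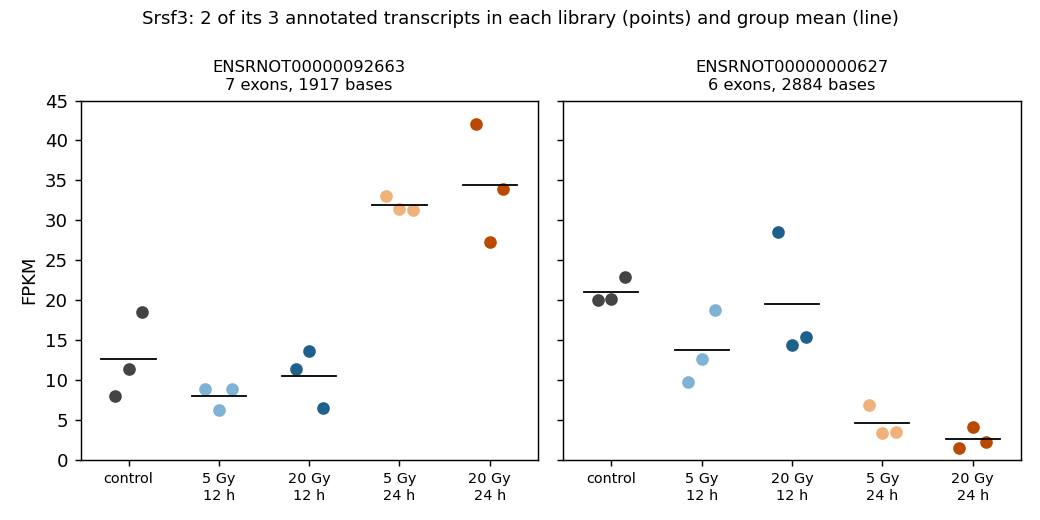
FPKM of 2 annotated transcripts of Srsf3 in each library (points) and the group mean (line), n = 3. The 7-exon transcript lies between 27.3 and 42.0 FPKM in the 6 libraries of 24 h and at 18.5 FPKM or less in the others, and the 6-exon transcript lies at 6.89 FPKM or less at 24 h.

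Srsf5 gave the largest number of calls. Its annotated transcript of 1180 bases (ENSRNOT00000007583) and 4 assembled ones of 1051 to 1058 bases made up most of the gene in controls. MSTRG.20116.2 (8 exons, 1051 bases) held 30.5%, 33.8% and 32.8% in controls, 19.3%, 20.3% and 16.2% at 12 h after 5 Gy and 21.8%, 16.2% and 10.7% at 12 h after 20 Gy. At 24 h it held 3.53%, 0% and 5.63% after 5 Gy and 10.8%, 5.98% and 10.5% after 20 Gy. All exposed libraries lay below the controls. Its use differed by -2.02, -2.37, -3.96 and -3.14 in the 4 comparisons, with FDR from 0.00126 down to 1.61e-11, and both calls at 12 h were lost at a pseudocount of 0.1. MSTRG.20116.3 (1055 bases) held a mean of 24.8 ± 1.23% in controls and 17.4 ± 1.07% and 18.9 ± 2.21% at 12 h. MSTRG.20116.9 (1054 bases) held 10.4 ± 1.11% in controls and 8.29 ± 0.238% and 8.04 ± 1.24% at 12 h. At 24 h after 5 and 20 Gy MSTRG.20116.3 held 12.4 ± 11.5% and 25.3 ± 7.04%, the latter overlapping the controls with a mean that was not lower, and MSTRG.20116.9 held 2.71 ± 2.505% and 7.99 ± 2.605%. The use of both was called lower in the 4 comparisons, with FDR at 12 h from 0.0102 to 0.0356. Their calls at 12 h, and those at 24 h after 20 Gy, were each lost at a pseudocount of 0.1, on rescaling to an equal sum and without 1 or more single libraries, while those at 24 h after 5 Gy held.

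Longer transcripts of Srsf5 had higher shares in the exposed cells. MSTRG.20116.4 (8 exons, 2019 bases) measured 2.13, 2.47 and 1.43 FPKM in controls, 18.4, 17.9 and 15.1 FPKM at 12 h after 5 Gy and 17.9, 22.1 and 21.004 FPKM after 20 Gy, while the gene sum was lower. Its mean share was 0.588 ± 0.187% in controls and 6.33 ± 0.469% and 8.26 ± 0.8903% at 12 h, with use differences of 2.19 and 2.53 (FDR 0.000379 and 3.18e-05). MSTRG.20116.6 (2023 bases) differed alike, from 0.633 ± 0.146% in controls to 6.57 ± 0.856% and 7.91 ± 0.429% at 12 h, with use differences of 2.15 and 2.37 (FDR 0.000536 and 0.000103). MSTRG.20116.8 (1853 bases) held 0.223 ± 0.1996% in controls and 2.54 ± 1.58% and 3.14 ± 1.09% at 12 h, with use differences of 1.66 and 2.00 (FDR 0.0133 and 0.00155). For each of the 3, the libraries of 12 h lay above all controls. At a pseudocount of 0.1, 5 of these 6 calls were lost, with FDR from 0.0691 to 0.221, and that of MSTRG.20116.8 after 20 Gy held. The call of MSTRG.20116.8 after 5 Gy was also lost without control replicate 3 and without replicate 3 of 5 Gy 12 h.

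At 24 h the shares of the longer Srsf5 transcripts rest on a small gene sum. MSTRG.20116.4 held 7.09%, 0% and 7.50% after 5 Gy and 11.1%, 7.27% and 9.81% after 20 Gy. MSTRG.20116.6 held 6.17%, 45.3% and 6.701% after 5 Gy, so that replicate 2 stood apart, and 5.77%, 5.62% and 6.02% after 20 Gy. MSTRG.20116.8 held 4.25%, 23.6% and 3.78% after 5 Gy. In replicate 2 of 5 Gy 24 h the whole gene was split differently, with MSTRG.20116.2, MSTRG.20116.3, MSTRG.20116.4, MSTRG.20116.5, MSTRG.20116.7 and MSTRG.20116.9 listed at 0. MSTRG.20116.4, MSTRG.20116.6 and MSTRG.20116.8 were called higher after both doses. The calls of MSTRG.20116.4 after 5 Gy and of MSTRG.20116.6 and MSTRG.20116.8 after 20 Gy were lost at a pseudocount of 0.1. MSTRG.20116.7 (7 exons, 2284 bases) was called after 5 Gy (use difference 1.38, FDR 0.0206), a call lost at a pseudocount of 0.1, without a filter, on rescaling, in a fit of the 2 groups alone, without control replicate 2 or 3 and without replicate 1 or 3 of 5 Gy 24 h. With 1 FPKM added to each value, a transcript near 0 changes less than its gene when the gene is lower, and the share in each library does not carry this effect. MSTRG.20116.8 is such a case after 20 Gy, where its share was 0%, 1.06% and 0% and its use difference of 2.01 (FDR 0.000341) became 1.26 (FDR 0.449) at a pseudocount of 0.1.

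**Figure D4:**
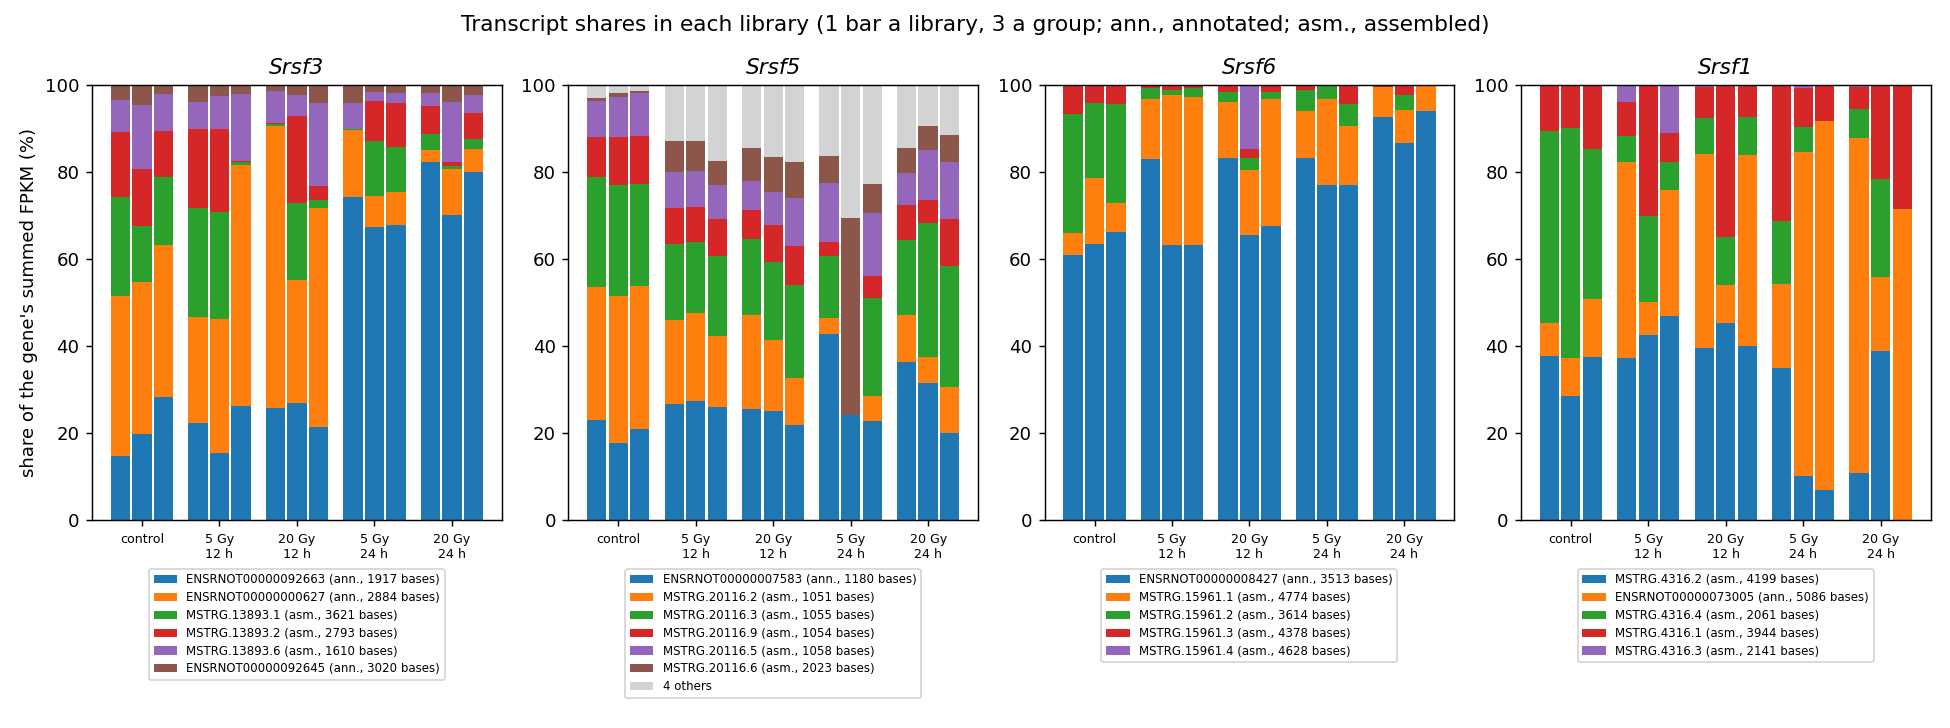
Share of the gene's summed FPKM (vertical axis, percent) held by transcripts of Srsf3, Srsf5, Srsf6 and Srsf1, 1 bar a library and 3 bars a group. The Srsf5 transcripts with the lowest means are drawn together as 1 grey part. The 7-exon transcript of Srsf3 fills 67.3% or more of each bar at 24 h, and MSTRG.15961.2 of Srsf6 holds 17.3% or more in controls and 5.05% or less in the exposed libraries.

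Srsf6 exchanged assembled transcripts by 12 h. MSTRG.15961.2 (5 exons, 3614 bases) held 27.3%, 17.3% and 22.7% of the gene in controls. It held 2.39%, 1.05% and 1.87% at 12 h after 5 Gy and 2.32%, 2.83% and 1.61% after 20 Gy, and every exposed library was below the controls. Its use differed by -2.69 (FDR 1.48e-08) and -2.50 (FDR 7.29e-08) at 12 h and by -1.45 (FDR 0.000252) and -1.57 (FDR 8.01e-05) at 24 h. MSTRG.15961.1 (5 exons, 4774 bases) held 5.02%, 15.2% and 6.52% in controls and 13.8%, 34.4% and 34.1% at 12 h after 5 Gy, and its use differed by 2.60 (FDR 3.01e-08) there and by 1.96 (FDR 1.09e-05) after 20 Gy. Its libraries overlapped those of the controls. The 6 results of these transcripts other than that of MSTRG.15961.1 at 24 h after 5 Gy (1.06, FDR 0.00793) held under the alternatives tried, and that one was lost without a filter on low values, without control replicate 1 or 3 and without replicate 2 of 5 Gy 24 h. The annotated transcript of Srsf6 (ENSRNOT00000008427) held most of the gene in every group.

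In Srsf1 a short assembled transcript was lower in use and the annotated one of 5086 bases (ENSRNOT00000073005) higher. MSTRG.4316.4 (4 exons, 2061 bases) held 44.2%, 52.8% and 34.5% in controls, 6.07%, 19.8% and 6.497% at 12 h after 5 Gy and 0 to 22.4% at 24 h after either dose. At 12 h after 20 Gy it held 8.302%, 11.2% and 8.62%, and every exposed library lay below the controls. Its use differed by -2.62 (FDR 0.0466) at 12 h after 5 Gy and by -2.91 (FDR 0.00701) and -2.59 (FDR 0.0171) at 24 h. The annotated transcript held 7.49%, 8.75% and 13.4% in controls and 19.2%, 74.6% and 84.8% at 24 h after 5 Gy, and 76.98%, 17.2% and 71.5% after 20 Gy. Its use differed by 2.71 (FDR 0.0125) and 2.57 (FDR 0.0181). Each of these 5 calls was lost without 1 or more single libraries. The call of MSTRG.4316.4 at 24 h after 5 Gy was lost without replicate 3 of that group, and the other 4 without control replicate 1 among others. The transcript with the highest mean was MSTRG.4316.2 (4199 bases), at 11.6 FPKM. Its share was 34.6 ± 5.19% in controls and 42.2 ± 4.79% and 41.6 ± 3.28% at 12 h, and 17.4 ± 15.4% and 16.5 ± 19.99% at 24 h (5 and 20 Gy).

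The transcripts of Srsf4 did not all follow its sum. MSTRG.18844.1 (8 exons, 3636 bases) held 24.2%, 49.01% and 22.5% in controls and 0.242 to 10.3% at 24 h, with use differences of -3.07 (FDR 0.00398) after 5 Gy and -3.49 (FDR 0.000949) after 20 Gy. The first was lost in a fit of the 2 groups alone (FDR 0.0597). MSTRG.18844.2 (9 exons, 2771 bases) held 3.48%, 3.58% and 1.63% in controls and 34.5%, 17.005% and 15.7% at 24 h after 20 Gy, without overlap (use difference 2.77, FDR 0.00948), a call lost at a pseudocount of 0.1 and without replicate 1 of that group (FDR 0.0507). The annotated transcript (ENSRNOT00000013301) had the highest mean, 22.7 FPKM, and alone gave differences of 0.74 and 0.84 at 24 h.

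For Srsf2 the annotated transcript (ENSRNOT00000067739, 1901 bases) held 87.6 ± 2.70% of the gene in controls, 47.0 ± 19.5% and 49.8 ± 20.0% at 12 h and 76.3 ± 5.75% and 85.9 ± 7.69% at 24 h (SD, n = 3). Its use differed by -2.88 and -2.79 at 12 h, with a limma diffSplice FDR of 0.165 and 0.193, and no transcript of Srsf2 was called in the 4 comparisons. In Srsf7, MSTRG.19358.3 (2225 bases) held 1.64 ± 0.6401% in controls and 18.9 ± 3.79% at 12 h after 20 Gy (use difference 2.44, FDR 0.00609), and MSTRG.19358.6 (2157 bases) held 18.8 ± 5.86% and 3.23 ± 0.386% (use difference -1.97, FDR 0.0405). The first was lost at a pseudocount of 0.1, and the second was lost there, at a higher filter, on rescaling, with a replicate block (FDR 0.05401), without control replicate 2 or 3 and without each library of 20 Gy 12 h in turn. The transcript of Srsf7 with the highest mean was MSTRG.19358.1 (2249 bases), at 10.8 FPKM.

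In Srsf10, MSTRG.18964.7 (4998 bases) held 26.8 ± 14.8% in controls and 5.102 ± 7.098% at 12 h after 5 Gy (use difference -1.73, FDR 0.00628) and 6.41 ± 11.1% at 24 h after 20 Gy (use difference -1.56, FDR 0.00539). Its libraries did not overlap those of the controls at 12 h after 5 Gy, but both calls were lost without control replicate 1, and the second also without replicate 1 of 20 Gy 24 h. The first was lost at a pseudocount of 0.1 and at a higher filter too. The transcript with the highest mean in Srsf10 was MSTRG.18964.1 (6110 bases), at 2.06 FPKM. In Srsf11 the annotated transcript (ENSRNOT00000044236) had the highest mean, 19.8 FPKM. MSTRG.13709.3 (14 exons, 2747 bases) was listed at 0 in the 3 controls and at 5.85, 2.98 and 3.58 FPKM at 24 h after 20 Gy (use difference 2.16, FDR 9.46e-08). MSTRG.13709.7 (7728 bases) held 2.25 ± 1.95% in controls and 7.81 ± 0.671% at 24 h after 5 Gy (use difference 1.09, FDR 0.0109), a call lost without control replicate 2, at a pseudocount of 0.1 and at a higher filter. Over the named transcripts 48 calls were made, of which 28 held whichever library was left out, 21 held at a pseudocount of 0.1 and 17 held under every alternative tried.

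Loci of unnamed transcripts on the opposite strand overlap the spans of Srsf1, Srsf2, Srsf7 and, at its end, Srsf9, with mean sums of 0.597, 1.67, 0.501 and 8.15 FPKM. It is not stated whether strand was used, so reads of a member and of its partner cannot be told apart there. RefSeq lists 23 pseudogenes named after 5 members, 10 for Srsf3, 7 for Srsf7, 3 for Srsf10, 2 for Srsf6 and 1 for Srsf5, and how reads shared with them were counted is not given in the sources used here.

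The lists of other splicing genes that follow were also chosen with earlier results of these data known. Most genes named from them were picked for the size of their change, so their adjusted p-values are no independent support. Of 9 tested genes of SR protein kinases and transport, 6 were called higher and 0 lower at 24 h after either dose, where 20.5% (5 Gy) and 17.0% (20 Gy) of all genes were called higher. The count at 24 h after 20 Gy was 3 with only the transcript of highest mean and 3 with annotated transcripts alone. At 12 h 2 were called higher after either dose, beside 4.98% and 4.90% of all genes, and 1 under each of those settings. The call of Top1 at 12 h after 20 Gy (log2 0.61, limma adjusted p 0.0396) was lost without each single library except control replicate 1, without a filter and in a fit of the 2 groups alone. Clk1, a nuclear kinase that releases SR proteins from speckles, rose from 20.5 ± 1.86 FPKM in controls to 54.8 ± 1.46 and 53.2 ± 3.44 FPKM at 12 h, and to 122 ± 2.40 and 125 ± 17.5 FPKM at 24 h (log2 2.54, SE 0.0960, limma adjusted p 8.06e-10 after 20 Gy). Top1, the DNA topoisomerase that also phosphorylates SR proteins, rose from 7.89 to 27.8 FPKM at 24 h after 20 Gy (log2 1.67, limma adjusted p 6.40e-06), although its transcript with the highest mean alone gave -2.18. That call was also lost with annotated transcripts alone (log2 1.11, limma adjusted p 0.183). Dyrk1a, a kinase of splicing factors and cell cycle proteins, rose from 12.3 to 28.1 FPKM (log2 1.15, limma adjusted p 8.99e-05), a call lost with annotated transcripts alone and with its transcript of highest mean, which gave 0.04 (limma adjusted p 0.983).

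Among 27 tested genes of SR-related proteins, 5 rose and 6 fell at 24 h after 20 Gy, and 5 rose and 7 fell after 5 Gy, where 17.0% and 23.3% of all genes were called higher and lower after 20 Gy and 20.5% and 20.8% after 5 Gy. With annotated transcripts alone the 12 calls after 5 Gy were 7. Pnisr, an SR-rich protein of speckles, fell from 36.4 ± 4.19 to 2.97 ± 0.801 FPKM (log2 -3.25, limma adjusted p 3.26e-07). Rsrp1, another protein rich in arginine and serine, rose at 12 h from 91.1 ± 3.38 to 188 ± 6.08 FPKM after 5 Gy (log2 1.04, limma adjusted p 0.000837) and 175 ± 19.1 FPKM after 20 Gy (log2 0.93, limma adjusted p 0.00212), then fell to 9.17 ± 2.79 FPKM at 24 h after 20 Gy (log2 -3.22, limma adjusted p 9.52e-09). Pnn, a speckle protein also found at desmosomes, fell from 38.8 to 12.3 FPKM (log2 -1.58, limma adjusted p 7.75e-08). Srsf12, a small family member outside the 10, rose from 0.506 to 2.99 FPKM (log2 1.40, limma adjusted p 4.91e-07), and Srsf8 was listed at 0 in every library.

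**Figure D5:**
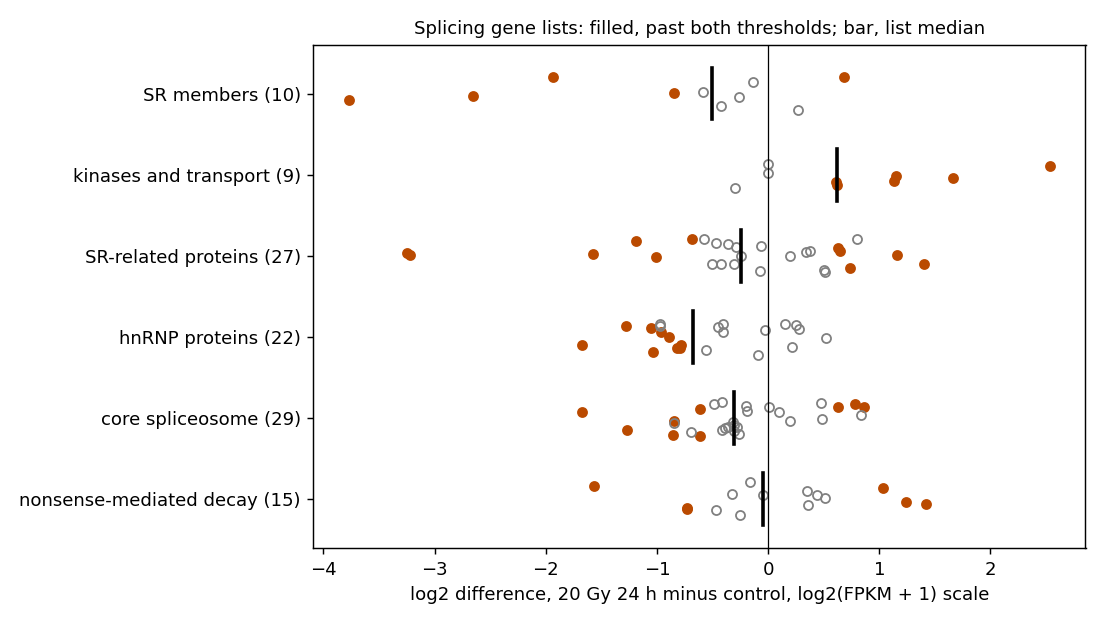
Log2 difference at 24 h after 20 Gy of each tested gene (points) in the SR members and 5 lists of splicing genes, with the list median (bar). Filled points passed both thresholds. The medians lie at -0.50 for the SR members, 0.62 for kinases and transport and -0.67 for the hnRNP proteins.

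The hnRNP proteins, which often oppose SR proteins at the same exons are treated next. Of 22 tested, 9 fell and 0 rose by the thresholds at 24 h after 20 Gy, and 10 fell and 0 rose after 5 Gy, with list medians of -0.67 and -0.57. Of all genes 23.3% and 20.8% were called lower there, and the count after 5 Gy was 6 under quantile scaling. Hnrnpll, Hnrnpul2 and Hnrnpul1 stood above control at 24 h after 5 Gy by a log2 difference of 0.51, 0.29 and 0.31, less than 1.5-fold. They were chosen after their values were seen, so no p-value is printed for them. At 12 h, 4 fell after 5 Gy and 1 after 20 Gy, beside 4.96% and 3.64% of all genes, and the count after 20 Gy was 3 without replicate 1 or without replicate 2 of that group. Hnrnpm fell from 94.7 ± 7.64 to 29.0 ± 3.98 FPKM (log2 -1.68, limma adjusted p 2.84e-08), Hnrnpab from 96.3 ± 5.41 to 39.0 ± 2.91 FPKM (log2 -1.28, limma adjusted p 8.16e-08) and Hnrnpa2b1 from 184 ± 8.96 to 88.7 ± 13.8 FPKM (log2 -1.05, limma adjusted p 2.66e-06).

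Of 29 tested genes of the core spliceosome, 3 rose and 6 fell at 24 h after 20 Gy, and 2 rose and 7 fell after 5 Gy, beside the shares of all genes given for the SR-related list. Snrpd1, an Sm ring protein, fell from 33.8 to 13.5 FPKM (log2 -1.27, limma adjusted p 1.75e-05). Prpf4, of the U4/U6 particle, rose from 8.44 to 16.2 FPKM (log2 0.87, limma adjusted p 1.15e-05), although its annotated transcripts alone gave -0.25. Sf3b6, which contacts the branch point, fell from 18.7 ± 1.41 to 7.17 ± 6.34 FPKM (log2 -1.67, limma adjusted p 0.0249), a call lost without replicate 1 of 20 Gy 24 h (log2 -0.88, limma adjusted p 0.105) and without control replicate 2 or 3, and in a fit of the 2 groups alone. Of 15 genes of nonsense-mediated decay, 3 rose and 3 fell at 24 h after 20 Gy, and 3 rose and 2 fell after 5 Gy, beside the same shares of all genes, and the 5 calls after 5 Gy were 8 on rescaling to an equal sum and 8 without control replicate 1. Upf2, an adaptor of the decay complex, rose from 20.4 to 55.9 FPKM (log2 1.42, limma adjusted p 4.14e-08) and Smg1, the kinase that phosphorylates UPF1, from 34.5 to 82.7 FPKM (log2 1.24, limma adjusted p 2.60e-06), while Smg5 fell from 16.1 to 4.83 FPKM (log2 -1.56, limma adjusted p 5.72e-07), a call lost with annotated transcripts alone (log2 -0.51) and with its transcript of highest mean (log2 -0.36).

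The genes whose pattern was most like that of Srsf5 were Snn, Ptpa and Imp3, with Pearson r of 0.9954, 0.9953 and 0.9932 on the log2(FPKM + 1) scale over the 15 libraries, among 9544 genes compared. Of these, 108 genes had r of at least 0.98, and the libraries share groups and depth. Snn had a mean of 36.2 FPKM in controls and 4.14 FPKM at 24 h after 20 Gy, Ptpa 59.5 and 24.8 FPKM, and Imp3 25.5 and 3.44 FPKM.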

How the data were processed

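Poly-A RNA of cultured cells from 15 libraries was sequenced on a HiSeq 2500 with reads of 150 bases. Per the submitters' processing notes and the methods, reads were trimmed with Trimmomatic, mapped to Rnor_6.0 with HISAT2 2.0.13, converted with samtools 1.9 and assembled with StringTie 1.3.5. The authors deposited FPKM per transcript. They also name kallisto and edgeR, whose counts were not analysed here. The 10 members and all gene lists were chosen with earlier results of these data known.

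FPKM values were used as deposited and summed per gene. In loci holding several gene names the unnamed transcripts, 4738 in all, were left unassigned, while named transcripts stayed with their gene. Values of log2(FPKM + 1) of genes with a mean of at least 0.5 FPKM were fitted with limma 3.58.1 (R 4.3.3), with 1 mean for each of 5 groups, 10 residual degrees of freedom and a variance trend. A call needs a Benjamini-Hochberg adjusted p under 0.05 and 1.5-fold. Fold changes on this scale understate those of low genes. Transcript use was tested with limma diffSplice at the same thresholds. Both were tested on simulated data, and diffSplice left most of the altered transcripts there uncalled. Depth was taken from single-exon transcripts, whose FPKM times length are whole numbers of bases (within 0.1) at 76.4 to 80.6% of values for the total found and 17.5 to 18.9% for other totals. Multiples of that total do as well, so the ratio between libraries is better known than the total, and no interval for counting error is given.

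Transcripts named were the highest of each member and those with a mean of at least 1 FPKM called for use. Of each list, up to 3 called genes with a mean of at least 5 FPKM and the largest change at 24 h after 20 Gy were named, with Srsf12, and the 3 genes most alike Srsf5, which had both the highest mean and the largest difference. The alternatives were another pseudocount, filter, scaling, prior or set of groups, a replicate block, leaving out each library, and, for gene sums, the highest transcript. The sum over annotated transcripts alone was added after seeing the data. The 14 endothelial, 7 pericyte, 8 fibroblast, 6 astrocyte, 7 microglia, 6 neuron and 7 oligodendrocyte markers were summed in FPKM.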

Additional observations from a re-analysis of the deposited data

Results flagged for a closer look

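The dose by time interaction (the change from 12 h to 24 h after 20 Gy minus that after 5 Gy) was examined for 10 members, 16 named genes of other lists and 61 member transcripts. It passed the 0.05 threshold over all features for 1 member and 1 member transcript. With a 1.5-fold difference as well, it was called for 93 of 17895 genes and 257 of 29020 transcripts tested. Srsf2 was lower after 20 Gy than after 5 Gy at 24 h and not at 12 h, with an interaction of -0.65 (log2, SE 0.112) on its gene sum. The use of MSTRG.13709.3 of Srsf11 had an interaction of 1.65 (log2, limma diffSplice FDR 0.0413). It was listed at 0 in 2 of 3 libraries of each dose at 12 h, at 1.78, 1.80 and 0 FPKM at 24 h after 5 Gy and at 5.85, 2.98 and 3.58 FPKM at 24 h after 20 Gy.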

How the results depend on the processing

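The count of SR genes called at 24 h was 5 after either dose. Under the alternatives that keep all libraries it was 4 to 6, with 6 after 20 Gy at a pseudocount of 0.1 and under quantile scaling, and on leaving out each library it was 5 to 5 (5 Gy) and 5 to 6 (20 Gy). At 12 h after 5 Gy, where 1 was called, it was 0 under quantile scaling and on rescaling to TPM, and 0 to 2 on leaving out each library. At 12 h after 20 Gy, where 0 were called, it was 1 with the highest transcript and 1 with annotated transcripts only (an alternative added after seeing the data), Srsf2 in both. On leaving out each library it was 0 to 1 there. Transcripts with changed use numbered 2 in place of 10 (5 Gy 12 h), 4 in place of 10 (20 Gy 12 h) and 9 in place of 15 (20 Gy 24 h) at a pseudocount of 0.1, and 18 at 12 h after 20 Gy in a fit of the 2 groups alone. On leaving out each library they numbered 7 to 10 at 12 h after either dose, 12 to 18 at 24 h after 5 Gy and 12 to 16 at 24 h after 20 Gy. Reversed values were 1.42 and 1.21 for Srsf1 at 24 h after 5 and 20 Gy with annotated transcripts only, -0.18 and -2.18 for Top1 at 12 h and 24 h after 20 Gy with its highest transcript, and -0.25 for Prpf4 at 24 h after 20 Gy with its highest or its annotated transcripts. The cause was not tested. 

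Whether replicate numbers pair the samples was not settled. Deviations of same-numbered libraries correlated from -0.18 to 0.23, 4 of 30 pairs over 0.1. Those of differently numbered libraries correlated from -0.21 to 0.20, 9 of 60 pairs over 0.1. Of 15 libraries 9 correlated best with their own number, and the count to be met without pairing was not worked out. With a replicate block the SR genes called were 1, 0, 5 and 5, and the transcripts with changed use 10, 9, 16 and 16, at 5 and 20 Gy 12 h and 5 and 20 Gy 24 h. The lowest read depth behind a member was that of Srsf6, at 466 read lengths in a library or a multiple of it.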
